A study of Mus musculus with 6 samples.

Results

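Keratins 7, 8, 18 and 19 are the keratins of simple epithelia, and the transcripts of Krt7, Krt8, Krt18 and Krt19 were described here in the apical part of the furcation development region (FDR), captured from mouse molars. They are 4 of the 23594 genes in the deposited table. Krt18 was chosen by its difference between genotypes in these same libraries, and its relatives were added as members of its gene family with their values known, so the values of the 4 genes are a description and carry no test.

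The tissue came from mandibular first molars of C57BL/6 mice at PN4.5, the age of 4.5 days, in 3 control libraries, labelled wild type, and 3 Lhx6-/- libraries, with no treatment in either group. Per the study's methods, the Lhx6-/- mice were homozygous for a knock-in allele, Lhx6-CreER, that abolishes Lhx6, the mutants and controls were littermates of both sexes, and tissue of several molars was combined by laser capture for each library. The allele is carried by every cell of these mice, not by the captured tissue alone. In bulk tissue, fewer cells of a type and less RNA per cell cannot be told apart.

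Keratins form the intermediate filaments of epithelial cells. Each filament is built from type I keratins and type II keratins in equal parts, so a type II keratin needs a type I partner. Krt8 (type II) and Krt18 (type I) are the classical partners of simple epithelia, and are also the first keratins made in the embryo. Krt7 is a type II keratin of ducts and glands, and Krt19 is a small type I keratin found in simple and in some stratified epithelia, dental epithelium among them. In the tooth, the basal keratins Krt5 and Krt14 mark the epithelium of the enamel organ and of Hertwig's epithelial root sheath.

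On mm10, Krt8 lies on chromosome 15 from 101996698 to 102004482 on the minus strand, and Krt18 from 102028180 to 102032027 on the plus strand. They point away from each other, 23.7 kb apart, with the RNA gene Gm36026 between their starts. Krt7 lies on the same chromosome from 101411043 to 101430313 on the plus strand, with 20 genes of the table between it and Krt8, of which 18 are keratins. Krt19 lies in the other keratin cluster, on chromosome 11 from 100140810 to 100148665 on the minus strand. Krt18 is thus a type I keratin that sits beside the type II genes.

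The windows around the annotated starts of Krt8 and Krt18 are shown because these neighbours were both higher in Lhx6-/- tissue. They are RefSeq sequences of GRCm38.p6, from 250 bases before to 50 bases after the RefSeq start, which differs from the start in the authors' table. Krt8 is chr15:102004293-102004592 on the minus strand and Krt18 is chr15:102027966-102028265 on the plus strand, and capitals mark a match to TATAAA on either strand, the only one of 5 searched motifs with a match in either window.
Krt8: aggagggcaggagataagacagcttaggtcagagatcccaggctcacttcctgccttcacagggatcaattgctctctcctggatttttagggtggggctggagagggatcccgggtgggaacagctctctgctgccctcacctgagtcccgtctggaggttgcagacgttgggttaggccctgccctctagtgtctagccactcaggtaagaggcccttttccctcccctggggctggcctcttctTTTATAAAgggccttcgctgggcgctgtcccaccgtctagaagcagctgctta
Krt18: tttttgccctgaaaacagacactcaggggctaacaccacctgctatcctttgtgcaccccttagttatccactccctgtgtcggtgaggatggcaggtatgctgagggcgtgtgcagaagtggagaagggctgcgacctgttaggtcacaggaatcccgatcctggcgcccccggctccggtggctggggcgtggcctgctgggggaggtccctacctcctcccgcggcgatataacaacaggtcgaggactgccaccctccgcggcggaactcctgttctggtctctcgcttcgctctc
Both strands were searched. The homeodomain core was taken as TAATTA, the GC box as GGGCGG and the TATA box as TATAAA. The AP-1 motif was taken as TGANTCA and the Grainyhead motif as AACNGGTT. The Krt8 window held 2 overlapping exact matches to TATAAA, on opposite strands, with first bases at -3 and -1 from the RefSeq start. They span that start, and whether they act as a TATA box was not tested. The Krt18 window held no exact match to any of the 5, and near matches were not searched. Over 16742 promoters of tested genes, 8.12% held the TATA box, 2.99% the homeodomain core, 56.8% the GC box, 5.74% the AP-1 motif and 1.85% the Grainyhead motif. The Krt7 window held 4 matches to the GC box and none of the others. Krt19 had no entry.

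Lhx6 was read first. It was at 27.8, 18.2 and 21.6 counts per 1000000 estimated counts (CPM) in control replicates 1, 2 and 3 and at 12.8, 10.2 and 10.3 CPM in Lhx6-/- replicates 1, 2 and 3. The groups did not overlap. Libraries labelled Lhx6-/- kept 0.492 of the mean control level, so reads of Lhx6 were still counted in them, and a count per gene cannot tell which exons these came from. The log2 fold change was -1.04 (standard error 0.16; the quasi-likelihood test of edgeR, adjusted by Benjamini-Hochberg, gave adjusted p = 0.0210). The call was lost without control replicate 3, Lhx6-/- replicate 2 or Lhx6-/- replicate 3 and with the Y-linked covariate, at an adjusted p of up to 0.125. The libraries held 60132323 to 76157433 estimated counts. Libraries differed in sex-linked transcripts: Xist, made from the inactive X chromosome, was at 411 to 791 CPM in control libraries and at 288, 0.240 and 0.0518 CPM in Lhx6-/- replicates 1, 2 and 3. The summed level of the Y-linked genes was 3.94 to 5.88 in control and 5.80 to 6.60 in Lhx6-/- libraries on a log2 CPM scale, so the make-up of the libraries by sex moved with genotype. With that level as a covariate, the log2 fold change was 2.09 for Krt18, 0.52 for Krt8, -0.82 for Krt7 and -1.92 for Krt19.

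Krt18 was higher in Lhx6-/- tissue. It was at 3.37, 2.80 and 3.96 CPM in control replicates 1, 2 and 3, and at 12.3, 11.4 and 9.51 CPM in Lhx6-/- replicates 1, 2 and 3. The lowest Lhx6-/- library lay above the highest control library. The mean was 3.38 ± 0.58 CPM over the control libraries and 11.1 ± 1.41 CPM over the Lhx6-/- libraries (SD, n = 3 each), a 3.27-fold higher level. The log2 fold change was 1.69 (standard error 0.17, 95% interval 1.32 to 2.07), from 187 to 238 estimated counts in control and 724 to 813 in Lhx6-/- libraries.

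Krt8, the type II partner of Krt18, was also higher in Lhx6-/- tissue, by a smaller amount. It was at 3.24, 3.73 and 2.40 CPM in control replicates 1, 2 and 3, and at 5.82, 7.44 and 3.92 CPM in Lhx6-/- replicates 1, 2 and 3. The groups did not overlap, but Lhx6-/- replicate 3 lay close to control replicate 2. The mean was 3.12 ± 0.68 CPM over the control libraries and 5.73 ± 1.76 CPM over the Lhx6-/- libraries (SD, n = 3 each), 1.83-fold higher. The log2 fold change was 0.85 (standard error 0.24, 95% interval 0.33 to 1.37). Of the 75-base stretches in Krt8 transcripts, 442 of 1884 (23.5%) occur in another transcript, 414 of them in the pseudogene Krt8-ps, which was not analysed here, and 28 in Gm36026, an RNA gene on the opposite strand that overlaps Krt8. The level of Krt8 is therefore uncertain. Gm36026 itself was at most 0.257 CPM in any library.

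Krt7 was lower in Lhx6-/- tissue. It was at 12.6, 16.9 and 15.4 CPM in control replicates 1, 2 and 3, and at 9.26, 13.46 and 8.07 CPM in Lhx6-/- replicates 1, 2 and 3. The groups overlapped, since Lhx6-/- replicate 2 lay above control replicate 1. The means were 14.99 ± 2.17 CPM and 10.3 ± 2.83 CPM (SD, n = 3 each), and the log2 fold change was -0.57 (standard error 0.17, 95% interval -0.94 to -0.20). Krt7 overlaps Gm671, an antisense gene, with which it shares 4 of 7105 stretches of 75 bases.

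Krt19 varied most among the libraries. It was at 6.72, 6.86 and 1.40 CPM in control replicates 1, 2 and 3, and at 2.02, 4.78 and 0.959 CPM in Lhx6-/- replicates 1, 2 and 3. Control replicate 3 lay below 2 of the Lhx6-/- libraries, and the groups overlapped. The means were 4.99 ± 3.12 CPM and 2.59 ± 1.97 CPM (SD, n = 3 each), and the log2 fold change was -0.98 (standard error 0.82, 95% interval -3.09 to 1.13), an interval that includes 0. Krt18 and Krt19 share no stretch of 75 bases with other genes and overlap none.

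**Figure D1:**
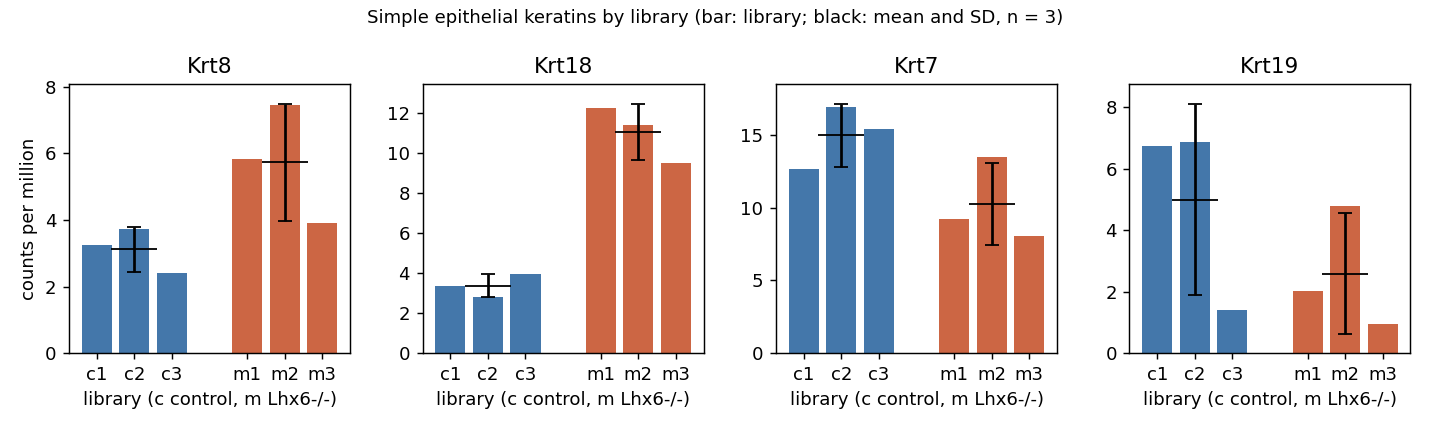
Level of each simple epithelial keratin in every library, in CPM, with a bar for each library and the mean with SD (n = 3) in black; c1 to c3 are control and m1 to m3 are Lhx6-/- replicates. Krt8 and Krt18 are higher in all Lhx6-/- libraries, while Krt7 and Krt19 overlap between the groups, and control replicate 3 is low for Krt19.

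The 3 control and 3 Lhx6-/- libraries did not overlap for 2 of the 4 keratins, against 14.7% of the 20114 genes tested; nothing is read from this, since the genes were chosen with these values known.

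Whether Krt18 moved with Krt8 was asked within each library, where library size and scaling cancel. Krt18 had 1.04, 0.750 and 1.65 times the estimated counts of Krt8 in control replicates 1, 2 and 3, and 2.10, 1.53 and 2.43 in Lhx6-/- replicates 1, 2 and 3. Lhx6-/- replicate 2 lay below control replicate 3, so the groups overlapped. On the log2 scale the means were 0.12 ± 0.57 and 0.99 ± 0.34 (SD, n = 3 each), a difference of 0.87 with a standard error of 0.38. Both genes were higher in Lhx6-/- tissue, with a fitted difference of 0.84 log2 units more for Krt18. Within the control group the order was opposite: control replicate 3 had the most Krt18 and the least Krt8, and control replicate 2 the reverse. Within the Lhx6-/- group replicate 3 was the lowest for both genes, while Krt18 was highest in replicate 1 and Krt8 in replicate 2. With 3 libraries in each of 2 separate clusters, no correlation was computed.

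Ratios to Krt7, the other type II keratin, separated the groups more widely. Krt7 was itself lower in Lhx6-/- tissue (log2 fold change -0.57), which adds to these differences for Krt8 and Krt18. The log2 ratio of Krt8 to Krt7 was -2.28 ± 0.37 in control and -0.86 ± 0.19 in Lhx6-/- tissue (SD, n = 3 each), with no overlap. For Krt18 to Krt7 it was -2.15 ± 0.38 and 0.13 ± 0.33, also with no overlap. For Krt19 to Krt7 it was -1.89 ± 1.38 and -2.25 ± 0.79, with overlap. Relative to Krt7, Krt8 and Krt18 were thus higher in each Lhx6-/- library than in any control library, while Krt19 was not.

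**Figure D2:**
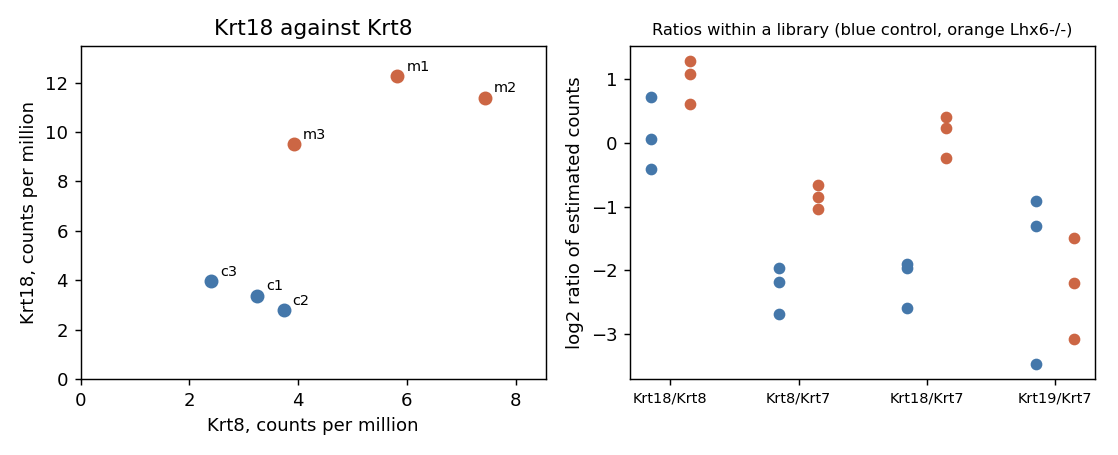
Left, Krt18 against Krt8 in each library in CPM; right, log2 ratios of estimated counts within each library, control in blue and Lhx6-/- in orange. The Krt18 to Krt8 ratio overlaps between groups, and the ratios of Krt8 and of Krt18 to Krt7 do not.

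Levels of different genes were compared per length, as CPM per kilobase of all annotated exons. In control tissue the order was Krt19 at 2.69 ± 1.68, Krt18 at 2.35 ± 0.40, Krt7 at 2.13 ± 0.31 and Krt8 at 1.60 ± 0.34 CPM per kb (SD, n = 3 each), and the libraries' ranges overlapped between each gene and the next in this order. In Lhx6-/- tissue Krt18 led at 7.69 ± 0.98 CPM per kb, followed by Krt8 at 2.92 ± 0.90, Krt7 at 1.46 ± 0.40 and Krt19 at 1.39 ± 1.06. The lowest library for Krt18, at 6.62, lay above the highest for Krt8, at 3.80, while the lowest for Krt8, at 2.001, lay just above the highest for Krt7, at 1.91, and Krt7 and Krt19 overlapped. The annotation of Krt7 spans 7049 bases of exon, and with the principal transcript of 4094 bases, a length chosen after seeing the data, Krt7 was at 3.66 in control and 2.51 CPM per kb in Lhx6-/- tissue. On these lengths Krt7 led in control, ahead of Krt19 at 3.17, and in Lhx6-/- libraries Krt7, at 1.97 to 3.29, overlapped Krt8, at 2.001 to 3.80.

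Krt8 and Krt18 together made up 42.5%, 38.8% and 57.5% of the per-length level of the 4 keratins in control replicates 1, 2 and 3, and 82.7%, 72.3% and 83.8% in Lhx6-/- replicates 1, 2 and 3. The groups did not overlap. The type I members, Krt18 and Krt19, summed to 5.04 ± 1.34 in control and 9.08 ± 1.75 CPM per kb in Lhx6-/- tissue. The type II members, Krt7 and Krt8, summed to 3.72 ± 0.50 and 4.38 ± 1.28 CPM per kb (SD, n = 3 each). These sums leave out the other keratins, several of them more abundant, so they do not give the balance of the types in the tissue. Among these 4 keratins the type II to type I ratio was 0.577 to 0.974 in control and 0.441 to 0.544 in Lhx6-/- libraries. With the principal transcript lengths it was 0.717 to 1.37 and 0.534 to 0.647.

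**Figure D3:**
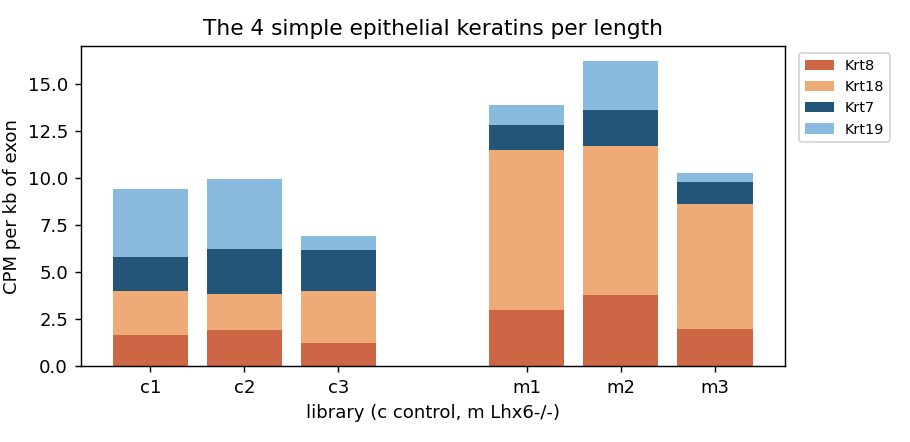
Stacked level of the 4 simple epithelial keratins in each library, in CPM per kilobase of exon; c1 to c3 are control and m1 to m3 are Lhx6-/- replicates. The Krt8 and Krt18 share is 38.8% to 57.5% in control and 72.3% to 83.8% in Lhx6-/- libraries.

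Most other keratins were lower in Lhx6-/- tissue, the direction opposite to Krt8 and Krt18. Of 29 other keratins that passed edgeR's expression filter, 27 were lower in Lhx6-/- tissue, with a median log2 fold change of -0.93, against -0.0019 over all tested genes. Of the 38 other keratins in the table, 16 had a mean of at least 1 CPM, and all 16 were lower under the 3 scalings used. Only Krt35, a hair keratin, passed an adjusted p under 0.05, a threshold passed by 0.403% of all tested genes, at 0.958 ± 0.139 CPM in control and 0.118 ± 0.056 CPM in Lhx6-/- tissue (log2 fold change -3.02, adjusted p = 0.0405 from edgeR). This call was lost when any 1 of the 6 libraries was left out and with either covariate, with an adjusted p of up to 0.190. DESeq2, which called 1.6% of the genes it gave an adjusted p, called 7 other type I and 0 other type II keratins. The study's rule of at least 1.5-fold and an unadjusted p under 0.05 was applied to edgeR's values, not to the study's own. It was met by 3.28% of all tested genes and by 14 of the 29, 13 of them lower. From its own values the study reported fewer genes under these thresholds.

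Krt5 and Krt14, the basal keratins, were lower in all Lhx6-/- libraries than in any control library, without passing adjustment. Krt5 was at 568 ± 154 CPM in control and 348 ± 27.4 CPM in Lhx6-/- tissue (SD, n = 3 libraries each; log2 fold change -0.72, adjusted p = 0.214 from edgeR), and its partner Krt14 at 361 ± 77.6 and 238 ± 14.5 CPM (log2 fold change -0.62, adjusted p = 0.116). Krt17, made by basal cells and hair follicles, was at 144 ± 42.9 and 71.5 ± 5.78 CPM (log2 fold change -1.03, adjusted p = 0.154). Krt13 and Krt4, the partners of mucosal stratified epithelium, were at 465 ± 128 and 247 ± 36.6 CPM, and at 422 ± 118 and 259 ± 47.0 CPM. Neither passed adjustment. Control replicate 2 was high for Krt1, Krt6a and Krt16, which mark differentiating or stressed epidermis: Krt1 was at 42.0 CPM there and at 2.01 and 4.16 CPM in the other control libraries. Without control replicate 2 the median of the other keratins was -0.65, with 26 of 29 lower.

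**Figure D4:**
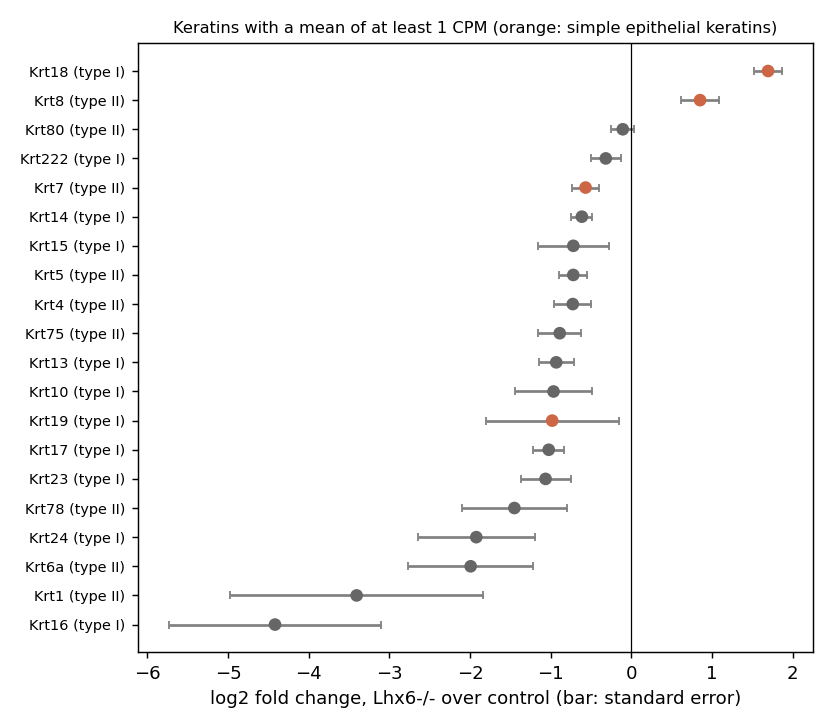
Log2 fold change of Lhx6-/- over control for the 4 simple epithelial keratins, in orange, and the 16 other keratins with a mean of at least 1 CPM, in grey; bars are standard errors. Of the keratins drawn, Krt18 (1.69) and Krt8 (0.85) lie to the right of 0 and the others to the left.

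Genes that anchor keratin filaments at cell junctions were read beside them. Of 17 desmosome and plakin genes, 14 were lower in Lhx6-/- tissue (median log2 fold change -0.34), and none passed an adjusted p under 0.05 in edgeR, with 9 at an unadjusted p under 0.05, against 9.81% of all tested genes, and 4 called by DESeq2, against 1.6%. Unadjusted, 6 met the rule, all lower: Dsp, Dsg1a, Dsg3, Dsc2, Dsc3 and Ppl. Desmoplakin, Dsp, which ties filaments to the desmosome, was at 152 ± 37.6 and 94.0 ± 9.22 CPM (SD, n = 3 each). Plec and Dst, plakins also made outside epithelia, were at 264 and 288 CPM and at 263 and 283 CPM. Of 15 tested other intermediate filament genes, none passed the adjusted threshold in edgeR or DESeq2 and 1, Nefm, met the rule, and Vim, the filament of mesenchyme, was at 979 ± 13.7 and 1077 ± 41.8 CPM.

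Epithelial identity was read from lists of markers. Of 17 epithelial transcription factors and splicing regulators, 16 were lower (median log2 fold change -0.42), none passed the adjusted threshold in edgeR, 7 had an unadjusted p under 0.05 (9.81% of all tested genes), DESeq2 called 1 (1.6% of all), and Ovol1 and Tfap2c were among those that met the rule. Their summed level was 150 to 224 CPM in control and 120 to 150 CPM in Lhx6-/- libraries. Of 23 dental epithelium markers, 20 were lower (median -0.12) and Amtn, an enamel matrix gene, fell (log2 fold change -0.54, adjusted p = 0.0210 from edgeR), a call lost without control replicate 3, without Lhx6-/- replicate 2 and with the Y-linked covariate, at an adjusted p of up to 0.136. Epcam, an epithelial adhesion gene, was at 6.98 and 6.73 CPM. In the fit with the level of dental epithelium markers as a covariate the log2 fold changes were 1.09 for Krt8 and 1.57 for Krt18, and -0.41 for Krt7 and -0.37 for Krt19.

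Other cells that carry these keratins were sought by their markers. Of 14 gland duct markers, 9 were in the table and 5 were tested, none passing either rule in edgeR or the adjusted threshold in DESeq2 and 1 having an unadjusted p under 0.05, and their sum was 13.6 to 16.3 CPM in control and 14.4 to 21.1 CPM in Lhx6-/- libraries, mostly Sox10, a factor shared with nerve glia, and Cftr. Of 8 Merkel cell markers, 5 were in the table and none passed in edgeR or DESeq2, with 1 at an unadjusted p under 0.05; 1 was higher and 4 were lower in Lhx6-/- tissue (median log2 fold change -0.75). The defining factors Atoh1 and Pou4f3 had no row among the genes analysed here. The sum of the 5 markers was carried by Piezo2 (18.7 and 24.7 CPM), the marker that was higher, while Sox2 was at 1.75 and 1.21 CPM, and was 20.2 to 24.2 CPM in control and 25.4 to 30.1 CPM in Lhx6-/- libraries.

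Some vascular and cartilage markers were also higher in Lhx6-/- tissue. Among 12 endothelial markers Cldn5 rose (log2 fold change 0.64, adjusted p = 0.0140), and 12 of 12 were higher, with Cdh5 at 85.3 and 112 CPM and Plvap at 68.9 and 75.7 CPM. In edgeR 7 of them had an unadjusted p under 0.05, against 9.81% of all tested genes, and DESeq2 called 3, against 1.6%. Among 12 smooth muscle and pericyte markers 10 were higher and Rgs5 rose (0.70, adjusted p = 0.0135), with Pdgfrb at 130 and 184 CPM. Here 7 had an unadjusted p under 0.05 in edgeR and DESeq2 called 3. Among 11 tested cartilage markers 9 were higher and Col9a1 rose (2.39, adjusted p = 0.00576), while Col11a2 and Col2a1, the most abundant, were at 2017 and 2081 CPM and at 959 and 762 CPM. Of these 11, 5 had an unadjusted p under 0.05 in edgeR, among them Col2a1, which was lower (log2 fold change -0.35), and DESeq2 called 4. Of 12 dental follicle and periodontal ligament markers 6 were higher and 6 lower, with Postn at 957 and 966 CPM and Pth1r at 227 and 224 CPM. Only Nbl1 passed an adjusted p under 0.05 (0.80, adjusted p = 0.00576 from edgeR), with 3 at an unadjusted p under 0.05 and 1 called by DESeq2. Nbl1 was also among the top genes that the study listed from these libraries. None of 10 odontoblast markers passed in edgeR, with 1 at an unadjusted p under 0.05 and 1 called by DESeq2, and with Col1a1 at 75555 and 81112 CPM and Dspp at 4442 and 5631 CPM. None of 5 tested sex-linked genes passed in edgeR or DESeq2, with 1 at an unadjusted p under 0.05. Without control replicate 3 the calls of Cldn5, Rgs5 and Nbl1 were lost, at an adjusted p of up to 0.115 over their alternatives; that of Cldn5 was also lost without Lhx6-/- replicate 1 or 2 and with the Y-linked covariate, that of Rgs5 also with the Y-linked or the epithelial covariate, and that of Col9a1 under none of the 14 alternative fits. The adjusted p-values are from edgeR, and the part of these cells in the Krt8 and Krt18 levels was not tested.

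The difference at Krt8 and Krt18 was compared with that of their neighbours. Of the 11 other genes among the 5 on either side of each, 9 were tested. None passed an adjusted p under 0.05 in edgeR and none was called by DESeq2. In edgeR 2 of the 9, Krt4 and Tns2, had an unadjusted p under 0.05, against 9.81% of all tested genes. On the side of Krt8, the type II keratins Krt76, Krt4, Krt79 and Krt78 had log2 fold changes of -1.37, -0.73, -0.69 and -1.45. On the side of Krt18, Eif4b, Tns2, Spryd3, Igfbp6 and Soat2 had 0.01, 0.29, -0.03, 0.02 and -0.39. The smallest adjusted p among the 9 was 0.377.

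**Figure D5:**
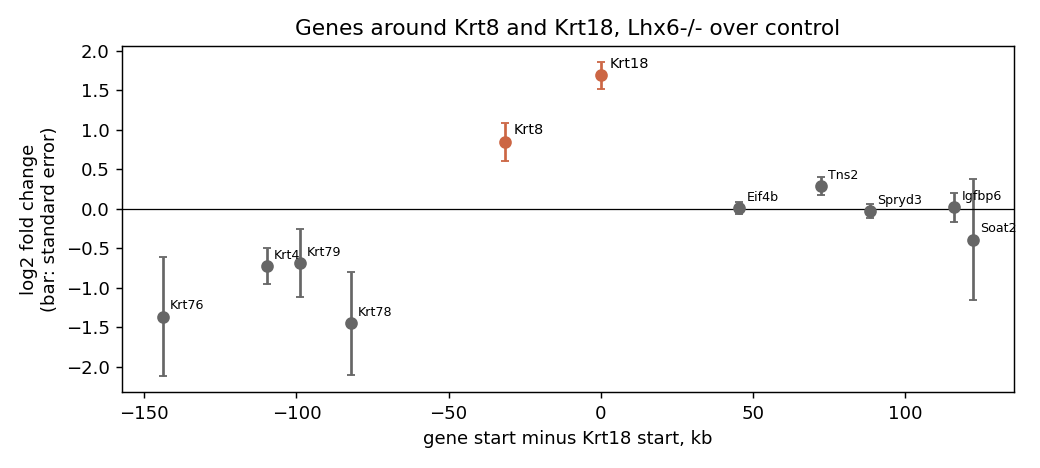
Log2 fold change of Lhx6-/- over control for Krt8 and Krt18, in orange, and the 9 tested neighbours, in grey, by distance of the gene start from the start of Krt18 in kb; bars are standard errors. The neighbouring keratins, to the left of Krt8, lie below 0, and the genes to the right of Krt18 lie between -0.39 and 0.29.

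The genes whose pattern over the 6 libraries was most like that of Krt18 were found among 15121 genes of at least 1 CPM by the root mean square difference of centred log2 CPM. They were Lypd1 (0.23), Pcdh10 (0.25), Foxd2os (0.26), Twist2 (0.27) and Cdh19 (0.28). Lypd1 was at 4.09, 2.77 and 4.28 CPM in control and 18.2, 17.8 and 11.9 CPM in Lhx6-/- replicates. Twist2, a mesenchymal transcription factor, was at 9.48, 7.01 and 9.37 and at 22.2, 20.9 and 16.2 CPM. Krt8 stood at rank 146 for Krt18, with a difference of 0.58.

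The genes nearest to Krt8 were Amy1 (0.12), Gbp6 (0.14), Gnal (0.18), Ntf3 (0.18) and Spock1 (0.18). Spock1, a matrix proteoglycan, was at 7.48, 9.35 and 7.001 CPM in control and 14.9, 17.2 and 12.8 CPM in Lhx6-/- replicates. Krt18 stood at rank 10627 for Krt8, with the same difference of 0.58. The 2 ranks differ because each counts the genes nearer to its own reference gene. The difference includes the step between genotypes, by which Krt18 was chosen. Neither group of 5 held another keratin.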

How the data were processed

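Per the labels and the study's methods, the authors sequenced single-end reads of 75 cycles, aligned them with STAR 2.6.1d to mm10 (GRCm38) and used Partek. The counter and gene annotation are not given in the sources used here. The authors deposited estimated counts of 23594 genes per library, not normalized and not always whole, and a table of their own comparison (fold changes, p-values, group means), of which only gene names, coordinates and group means were used. The deposited count table names no genes: the order of names was tested by fitting the authors' group means to the counts (largest relative deviation 8.56e-08). The deposited counts were 80.0% to 85.2% of the total behind those means. Gene ends had 1 subtracted, as 23046 of the 23594 lay 1 base past GENCODE vM21. Lhx6-/- replicates are numbered as in the sample titles. Strandedness is not stated, so overlapping and antisense reads cannot be told apart.

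The estimated counts were rounded and tested by edgeR's quasi-likelihood test (edgeR 4.0.16, R 4.3.3; robust, TMM, expression filter, genotype only, two-sided, Benjamini-Hochberg over 20114 genes). CPM values are per 1000000 deposited estimated counts. A standard error is the absolute log2 fold change over the square root of F; likeness used log2 CPM with a prior count of 2. The biological coefficient of variation was 0.202 and TMM factors ran from 0.977 to 1.04. With 3 libraries per group, the spread between libraries, each a pool of several molars, set the precision. The p-values weigh the genotype difference against that spread, which edgeR moderates across genes. The code was tested on simulated data. There were 14 alternative fits (scalings, DESeq2 1.42.0, filters, a replicate block, epithelial and Y-linked covariates, each library left out).

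The members, the 15 gene lists and the tests were chosen with earlier results of these data known. Genes named were the 4 members, Lhx6, list genes with an adjusted p under 0.05, the neighbours, other keratins of at least 1 CPM, the 5 genes nearest in pattern to Krt18 and to Krt8, and the 2 most abundant genes of the lists of other cells; list genes named as meeting the 1.5-fold rule, Epcam, and control replicate 2's keratins were picked with their values in view. Figures were drawn with matplotlib 3.10.9.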

Additional observations from a re-analysis of the deposited data

How the results depend on the processing

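The sign of the log2 fold change of Krt7, Krt8, Krt18 and Krt19 and of the Krt18 minus Krt8 difference was kept in all 14 alternative fits. With the Y-linked covariate the log2 fold change of Krt18 was 2.09 and the Krt18 minus Krt8 difference 1.57, and with the epithelial covariate the difference was 0.48, against 0.84 with neither; the cause was not tested. Leaving out each library gave 1.57 to 1.83 for Krt18, 0.65 to 1.05 for Krt8, -0.78 to -0.44 for Krt7, -1.74 to -0.59 for Krt19 and 0.58 to 1.13 for the difference. Krt7 per length was 3.66 in control and 2.51 CPM per kb in Lhx6-/- tissue with the principal transcript. Libraries of the same title number had deviation correlations of 0.026, -0.028 and -0.032, and those of different numbers -0.064 to 0.095. The study's methods speak of pairs of samples, and the deposited counts number the Lhx6-/- libraries otherwise than the titles. These correlations therefore cannot decide whether libraries were paired. With the replicate block the log2 fold changes were 1.70 (Krt18), 0.84 (Krt8), -0.58 (Krt7) and -0.96 (Krt19), and 134 genes were called at an adjusted p under 0.05 against 81.

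The count of called genes was 41 with the epithelial covariate, 181 with the Y-linked covariate, 315 with DESeq2, 660 by the 1.5-fold rule, and 12 (without control replicate 3) to 127 (without control replicate 1) with a library left out. By list, leaving out a library gave 0 to 1 for type II keratins, 0 to 3 for type I keratins, 0 to 4 for anchors, 0 to 2 for dental epithelium, 0 to 1 for endothelium, 0 to 2 for smooth muscle, 1 to 3 for cartilage, 0 to 1 for follicle, 0 to 3 for sex-linked genes and 0 to 1 for neighbours. With the replicate block, 5 type I keratins, 5 anchors, 1 epithelial factor, 3 dental epithelium, 3 smooth muscle and 3 cartilage genes were called. With the Y-linked covariate these were 3 type II and 6 type I keratins, 9 anchors, 2 epithelial factors, 4 dental epithelium, 0 endothelium, 2 smooth muscle and 2 cartilage genes. DESeq2 called 7 type I keratins, 4 anchors, 1 epithelial factor, 4 dental epithelium, 3 endothelium, 3 smooth muscle, 4 cartilage and 1 odontoblast gene. The epithelial covariate left 0 smooth muscle and 1 sex-linked gene, and the filter of 10 counts in every library left 0 type I keratins. The 1.5-fold rule gave 6 type II and 8 type I keratins, 1 other filament gene, 6 anchors, 3 epithelial factors, 4 dental epithelium, 2 smooth muscle, 4 cartilage, 1 sex-linked gene and 1 neighbour. The principal transcript length, the 1.5-fold rule over all genes and every alternative for the neighbours were chosen after seeing the data.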
